A study of Mus musculus with 9 samples.

Results

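The 37 genes described here encode the proteins with which liver builds, cross-links and removes extracellular matrix, together with markers of the hepatic stellate cell and the core of TGF-β signalling. They are a named list chosen by function, and all 37 were found among the 27179 genes of the count table and among the 16860 genes tested. Their transcripts were counted in RNA from sections of frozen mouse livers, in 9 libraries, 5 labelled *Apoe-/-* and 4 labelled *Mif-2-/-Apoe-/-*. The study reports female and male mice of these genotypes and does not state the sex for the sequenced sections. Both groups carried the global deletion of *Apoe*, a lipoprotein gene whose loss makes mice hypercholesterolaemic. Both received HFD, a high-fat diet, over 12 weeks from an age of 8 weeks on. The labelled difference between them was the global deletion of *Mif-2*. Each library combined the lysates of 3 to 4 sections. The labels do not say which libraries came from separate mice, so p-values measure the spread between these libraries, which may in part be technical. No group on a normal diet and no group with intact *Apoe* belonged to the comparison.

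Hepatic stellate cells store vitamin A in the healthy liver, and after injury they turn into contractile, matrix-producing myofibroblasts. TGF-β released from latent stores in the matrix and PDGF acting on its receptors are the classical drivers of that change, and fibrillar collagens cross-linked by lysyl oxidases make up the scar. Matrix metalloproteinases and their tissue inhibitors (TIMPs) set how much of it is removed, while hepatocytes and endothelial cells contribute fibronectin and basement membrane.

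Reads on the exons of each gene were counted, and levels are given as CPM. These are counts scaled, with TMM normalization, to the summed counts of the genes tested in a library. That sum leaves out the 10 most abundant genes, which took 12.53% to 26.33% of the counts of a library. Differences were tested with edgeR's quasi-likelihood test, adjusted over all 16860 genes, and log2 fold changes are *Mif-2-/-Apoe-/-* over *Apoe-/-*, so that a positive value means a higher level in *Mif-2-/-Apoe-/-* livers. The libraries held 2318148 to 10764182 counts, of which the 37 genes took 3430 to 13708. *Ddt*, the gene of MIF-2, lay between 233 and 972 CPM in the *Apoe-/-* libraries and between 2.51 and 5.49 CPM in the *Mif-2-/-Apoe-/-* libraries, which checks the labels. The stellate cell markers *Des*, *Pdgfrb*, *Lrat* and *Reln* had counts in all 9 libraries. In bulk tissue, fewer cells of a type and less RNA per cell cannot be told apart.

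By edgeR, 0 of the 37 genes had an adjusted p-value under 0.05, where 0.0712% of all genes tested passed as higher and 0.0593% as lower in *Mif-2-/-Apoe-/-* livers. DESeq2 also called 0 of the 37, against 1.83% and 1.67% of all genes, and gave *Hgf*, *Lox* and *Loxl2* no adjusted p-value. At an unadjusted edgeR p-value under 0.05, 2 genes were higher, the PDGF receptor gene *Pdgfra* and the matrix glycoprotein gene *Fbln1*, and 1 was lower, the membrane-bound collagenase gene *Mmp14*. The background at that threshold was 8.99% of all genes for higher and 6.52% for lower, so a count of 3 among 37 was no more than the share among all genes. *Mmp14* was also the only one of the 37 whose values did not overlap between the genotypes, where 2.24% of all genes were separated as lower and 2.03% as higher. The median log2 fold change of the 37 genes was 0.19, beside 0.17 for all genes tested, and 24 lay above 0 and 13 below 0, beside 56.5% of all genes above 0. With TMMwsp, a scaling made for sparse counts, the median of all genes was -0.0015 and that of the 37 genes 0.07.

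**Figure D1:**
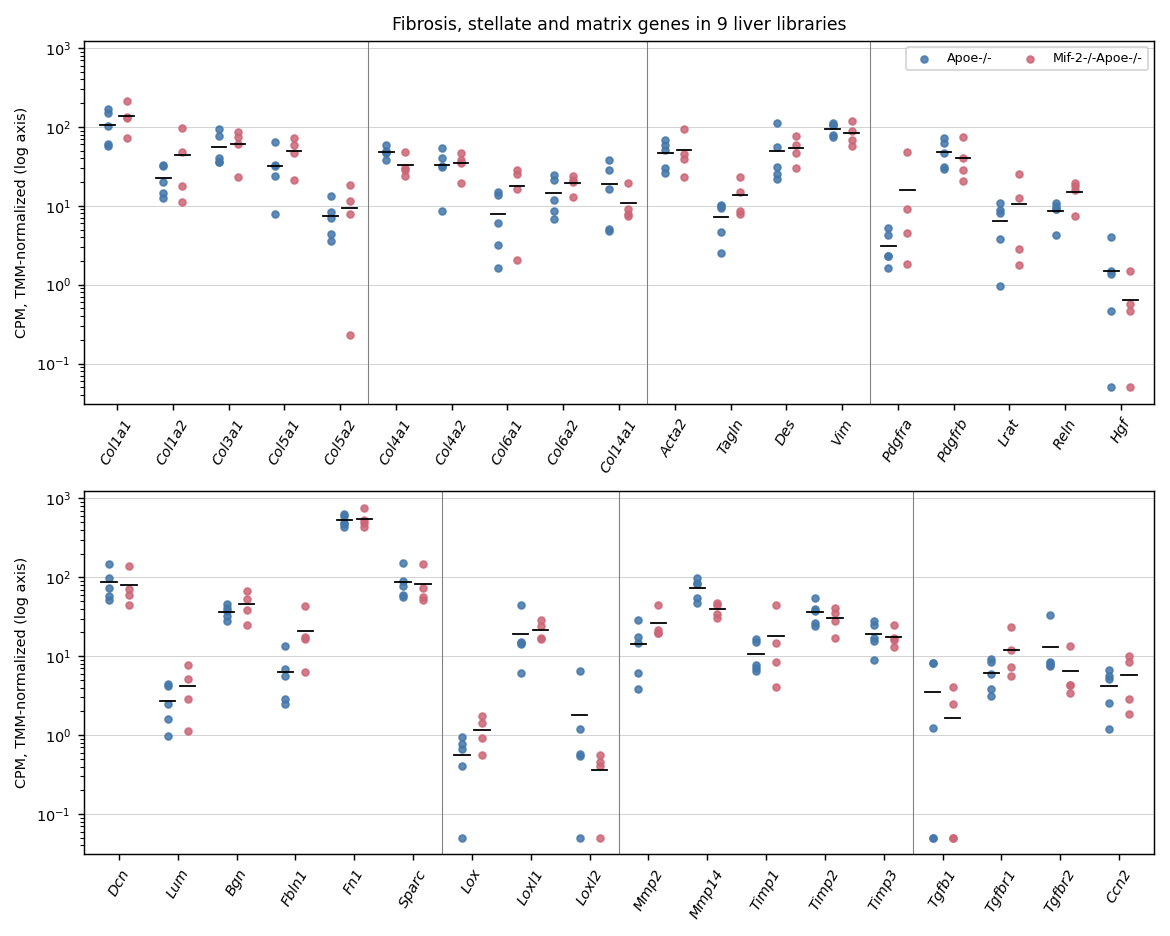
Level of each of the 37 genes in each library, as TMM-normalized CPM on a log axis, with 1 point per library (5 *Apoe-/-* in blue, 4 *Mif-2-/-Apoe-/-* in red), black bars for group means and grey lines between role groups; libraries with 0 counts are drawn at the lowest position. The points of the genotypes overlap for every gene except *Mmp14*, and *Fn1* lies above all other genes at 430 to 764 CPM.

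The stretches upstream of the 3 genes with an unadjusted p-value under 0.05, and of the fibrillar collagen gene *Col3a1*, are shown because they can be read beside the levels given below. They are the 250 bases before the RefSeq start site, on the plus strand of GRCm38.p6 (the mm10 build of the counts), and hold no annotated exon. Capitals mark matches, on either strand, to the CCAAT box, the GC box, the TATA box and the Smad-binding CAGA box, whose letters are given below, and in *Mmp14* a CCAAT and a GC box share a base.
Mmp14, chr14:54431348-54431597: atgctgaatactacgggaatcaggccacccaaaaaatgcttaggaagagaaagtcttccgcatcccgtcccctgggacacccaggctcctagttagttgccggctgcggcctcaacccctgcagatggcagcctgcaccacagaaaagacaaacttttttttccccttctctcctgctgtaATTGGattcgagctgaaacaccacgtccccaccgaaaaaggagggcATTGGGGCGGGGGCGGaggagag
Fbln1, chr15:85205699-85205948: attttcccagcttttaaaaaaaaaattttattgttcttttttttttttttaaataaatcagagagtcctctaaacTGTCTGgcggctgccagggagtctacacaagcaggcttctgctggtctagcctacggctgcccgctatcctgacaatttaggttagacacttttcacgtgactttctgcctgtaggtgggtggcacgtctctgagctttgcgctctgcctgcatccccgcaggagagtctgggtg
Pdgfra, chr5:75152001-75152250: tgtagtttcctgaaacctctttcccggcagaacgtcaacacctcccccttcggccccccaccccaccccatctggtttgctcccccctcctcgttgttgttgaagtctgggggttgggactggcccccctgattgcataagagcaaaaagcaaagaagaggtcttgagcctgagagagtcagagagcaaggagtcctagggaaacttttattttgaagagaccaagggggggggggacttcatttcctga
Col3a1, chr1:45311288-45311537: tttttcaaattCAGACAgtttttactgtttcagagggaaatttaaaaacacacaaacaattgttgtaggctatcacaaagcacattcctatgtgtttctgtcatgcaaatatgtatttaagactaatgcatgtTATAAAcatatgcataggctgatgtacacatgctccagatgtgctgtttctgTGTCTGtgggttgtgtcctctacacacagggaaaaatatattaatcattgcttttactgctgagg

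The printed window of *Mmp14* holds 2 CCAAT and 2 GC boxes, that of *Fbln1* 1 CAGA box, that of *Col3a1* a TATA box and 2 CAGA boxes, and that of *Pdgfra* none of these letters. A second window of *Fbln1*, with 59 bases of annotated exon and not printed, holds 1 GC box and 1 CAGA box. RefSeq start-site windows, each from 250 bases before the start to 50 after it, were found for 24 of the 37 genes. There were 28 windows in all, and for 13 genes none was found. Letters were searched only in the 250 bases before the start, which in some windows hold annotated exon. Among these 28 windows, 57.1% held the letters GGGCGG of the GC box on either strand, beside 32.7% of all 32851 windows. The letters CAGACA of the CAGA box were present in 28.6% of the windows of these genes and in 17.1% of all windows. For the CCAAT box, which is named by its letters, the shares were 35.7% and 33.8%. The TATA box was searched as TATAAA and was present in 7.1% of the windows of these genes and 12.4% of all, and the AP-1 site, searched as TGANTCA, in 3.6% and 6.7%. The CArG box of smooth muscle genes was in 0 of the 28 windows and in 1.5% of all. These are matches of letters and were not tested.

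Among the matrix proteases and their inhibitors, *Mmp14* encodes MT1-MMP, a protease anchored in the cell membrane that cleaves fibrillar collagen and activates pro-MMP2. The gene lies on chromosome 14 from 54431612 to 54445364 (plus strand, 7 annotated transcripts of up to 10 exons). It was at 55.4, 46.9, 84.0, 98.0 and 83.4 CPM in *Apoe-/-* livers and at 34.6, 44.9, 46.6 and 30.4 CPM in *Mif-2-/-Apoe-/-* livers. Each *Mif-2-/-Apoe-/-* library lay below each *Apoe-/-* library, although the gap between the nearest 2, at 46.6 and 46.9 CPM, was small. Mean levels were 73.6 ± 21.5 CPM (SD, n = 5) against 39.1 ± 7.87 CPM (SD, n = 4). The edgeR fit put the log2 fold change at -0.91 (standard error 0.36, 95% interval -1.68 to -0.15, adjusted p = 0.253). A two-sided exact permutation test of the 9 libraries gave p = 0.0159, where 0.0079 is the smallest value that 5 against 4 libraries allow. When each library was removed in turn, the unadjusted edgeR p-value stayed under 0.05 in 7 of 9 fits. It did not without *Mif-2-/-Apoe-/-* library 1 (log2 fold change -0.85) and without *Mif-2-/-Apoe-/-* library 4 (log2 fold change -0.80).

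None of the partners of *Mmp14* in collagen turnover was separated between the genotypes. *Mmp2*, the gelatinase whose zymogen MT1-MMP activates, was at 6.17, 14.9, 28.6, 17.5 and 3.87 CPM in *Apoe-/-* and at 19.7, 19.9, 44.3 and 21.3 CPM in *Mif-2-/-Apoe-/-* livers, which overlapped, with a log2 fold change of 0.90 (standard error 0.63, edgeR adjusted p = 0.522). *Timp2*, whose product inhibits MT1-MMP and also couples it to pro-MMP2, ranged from 24.4 to 55.0 CPM and from 16.9 to 40.9 CPM (log2 fold change -0.27). *Timp1*, an inhibitor induced in injured liver, had medians of 7.82 and 11.6 CPM, and its log2 fold change of 0.76 rested on *Mif-2-/-Apoe-/-* library 2 at 44.9 CPM, being -0.30 without it. *Timp3*, the matrix-bound inhibitor, ranged from 9.07 to 28.3 CPM and from 13.0 to 24.7 CPM (log2 fold change -0.10). It overlaps exons of *Syn3* on the opposite strand over 1733 bases, and the counting is not stated to use strand, so reads of the pair cannot be told apart.

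The receptors and products of stellate and mesenchymal cells included the largest fitted increase. *Pdgfra*, the PDGF receptor chain of fibroblasts, lies on chromosome 5 from 75152292 to 75198215 (plus strand, 9 annotated transcripts), with other annotated genes overlapping its exons on the opposite strand. It was at 2.33, 2.28, 5.16, 1.61 and 4.26 CPM in *Apoe-/-* livers and at 4.47, 9.09, 47.6 and 1.83 CPM in *Mif-2-/-Apoe-/-* livers. *Mif-2-/-Apoe-/-* library 3 stood far above the other 8, and library 4 of that genotype lay within the *Apoe-/-* range. Means were 3.13 ± 1.51 CPM (SD, n = 5) against 15.8 ± 21.5 CPM (SD, n = 4). The fitted log2 fold change was 2.34 (standard error 0.95, edgeR adjusted p = 0.265), and without *Mif-2-/-Apoe-/-* library 3 it was 0.70 (edgeR adjusted p = 0.835). Permuting the libraries exactly gave p = 0.183 (two-sided).

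*Pdgfrb*, the PDGF receptor chain that marks stellate cells and pericytes, was the most abundant gene of this group. Its levels were 46.1, 63.4, 29.6, 30.6 and 73.2 CPM in *Apoe-/-* and 74.2, 20.4, 40.3 and 28.1 CPM in *Mif-2-/-Apoe-/-* livers. The genotypes overlapped over nearly their whole range, averaging 48.6 ± 19.5 CPM (SD, n = 5) against 40.8 ± 23.8 CPM (SD, n = 4). The fit gave a log2 fold change of -0.25 (standard error 0.46, edgeR adjusted p = 0.841). *Lrat*, which esterifies retinol for storage in stellate cells, was lowest in *Apoe-/-* library 5 at 0.968 CPM and highest in *Mif-2-/-Apoe-/-* library 4 at 25.6 CPM, with a log2 fold change of 0.71 that was -0.21 without that library. *Reln*, a secreted glycoprotein of stellate cells, ranged from 4.23 to 10.8 CPM and from 7.52 to 19.4 CPM, and 3 of the 4 *Mif-2-/-Apoe-/-* libraries lay above all *Apoe-/-* libraries (log2 fold change 0.80, edgeR adjusted p = 0.578). *Hgf*, the hepatocyte growth factor that stellate cells secrete, had 0 to 21 counts and reached 10 counts in 3 libraries, too few for a comparison.

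In the group of proteoglycans and matrix glycoproteins, *Fbln1* encodes fibulin-1, which binds fibronectin and basement membrane proteins. It lies on chromosome 15 from 85205949 to 85286535 (plus strand, 3 annotated transcripts of up to 17 exons). Its levels were 2.47, 6.97, 13.6, 5.64 and 2.90 CPM in *Apoe-/-* livers and 6.30, 17.6, 16.4 and 43.2 CPM in *Mif-2-/-Apoe-/-* livers. 3 of the 4 *Mif-2-/-Apoe-/-* libraries were above all 5 *Apoe-/-* libraries, and library 1 was within their range. Levels averaged 6.32 ± 4.49 CPM (SD, n = 5) against 20.9 ± 15.7 CPM (SD, n = 4), with p = 0.0476 in the two-sided exact permutation test. The edgeR fit put the log2 fold change at 1.74 (standard error 0.75, adjusted p = 0.287). Its unadjusted p-value stayed under 0.05 in 3 of the 9 fits with a library removed and did not with TMMwsp, and without *Mif-2-/-Apoe-/-* library 4 the log2 fold change was 1.10 (edgeR adjusted p = 0.617).

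*Fn1*, fibronectin, which hepatocytes release into plasma and fibroblasts lay down in matrix, was by far the most abundant of the 37 genes and took 25.4% to 44.2% of their summed CPM in a library. It was at 606, 639, 478, 495 and 434 CPM in *Apoe-/-* and at 764, 495, 430 and 536 CPM in *Mif-2-/-Apoe-/-* livers, from 872 to 4765 counts a library. The highest and the lowest library both belonged to *Mif-2-/-Apoe-/-*, and the means were 530 ± 87.7 CPM (SD, n = 5) against 556 ± 145 CPM (SD, n = 4). The fitted log2 fold change, 0.07 (standard error 0.28, 95% interval -0.53 to 0.67), was the most narrowly bounded of the 37 and was -0.12 with TMMwsp. The sum of all 37 genes was 1566 ± 246 CPM (SD, n = 5) against 1671 ± 267 CPM (SD, n = 4). Without *Fn1* it was 1036 ± 237 against 1115 ± 294 CPM.

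The other 4 genes of this group are small leucine-rich proteoglycans and a matricellular protein. *Sparc*, a collagen-binding protein of remodelling tissue, ranged from 57.1 to 151 CPM in *Apoe-/-* and from 51.7 to 147 CPM in *Mif-2-/-Apoe-/-* livers (log2 fold change -0.09, 95% interval -0.96 to 0.78). *Dcn*, decorin, which binds collagen fibrils and TGF-β, ranged from 51.2 to 150 CPM and from 44.6 to 140 CPM (log2 fold change -0.13). Both reached their highest level in *Apoe-/-* library 3 and their next highest in *Mif-2-/-Apoe-/-* library 2. *Bgn*, biglycan, had medians of 37.8 and 46.4 CPM (log2 fold change 0.33), and *Lum*, lumican, which spaces collagen fibrils, had medians of 2.47 and 3.98 CPM and 5 to 33 counts in a library (log2 fold change 0.62, 95% interval -1.46 to 2.71).

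**Figure D2:**
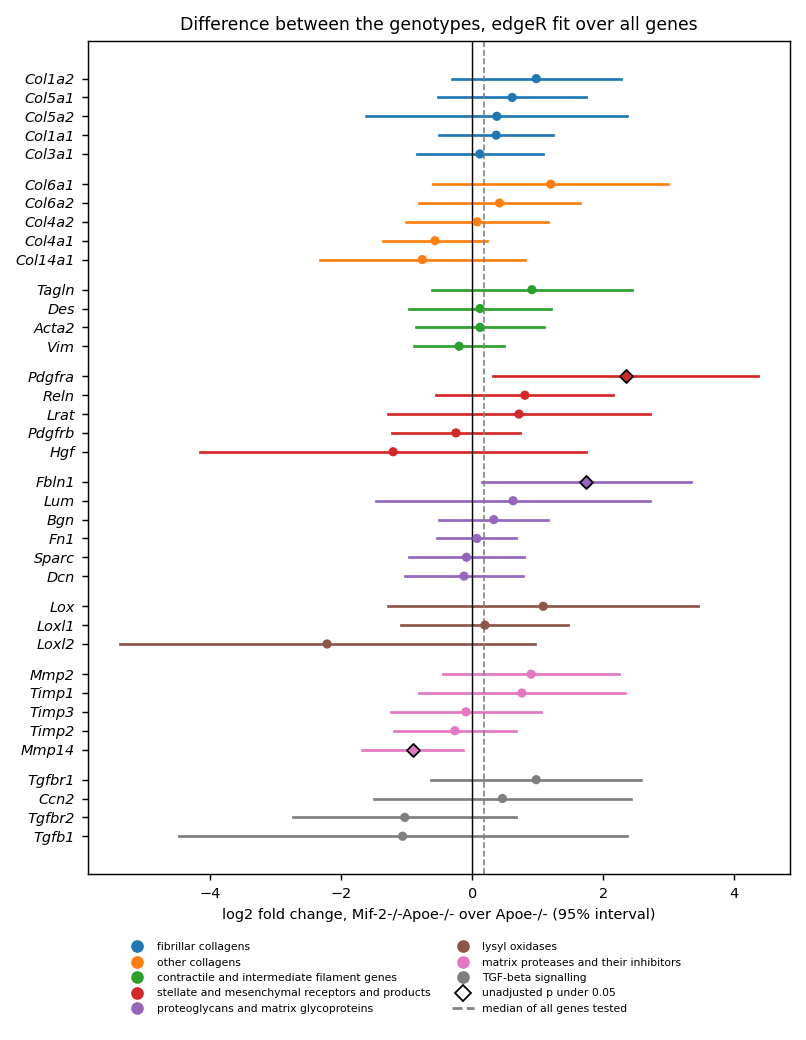
Fitted log2 fold change (*Mif-2-/-Apoe-/-* over *Apoe-/-*) of each gene, with its 95% interval from edgeR, coloured by role group; diamonds mark the 3 genes with an unadjusted p-value under 0.05 and the dashed line is the median of all genes tested, 0.17. The intervals of 34 genes include 0, and the widest belong to *Loxl2*, *Tgfb1* and *Hgf*.

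The fibrillar collagens, the rope-like proteins of scar, all had fitted log2 fold changes above 0 with TMM, while *Col3a1* was at -0.03 with TMMwsp, and 0 of the 5 passed an unadjusted p-value of 0.05. The median of the 5 was 0.37. *Col1a1*, the α1 chain of type I collagen, lies on chromosome 11 from 94936224 to 94953042 (plus strand, up to 51 exons) and was the most abundant of them. It was at 57.5, 149, 167, 101 and 61.2 CPM in *Apoe-/-* and at 131, 216, 133 and 72.5 CPM in *Mif-2-/-Apoe-/-* livers. Only *Mif-2-/-Apoe-/-* library 2 exceeded the *Apoe-/-* range, and the means were 107 ± 49.8 CPM (SD, n = 5) against 138 ± 58.9 CPM (SD, n = 4). The fitted log2 fold change, 0.36 (standard error 0.41, 95% interval -0.50 to 1.23, edgeR adjusted p = 0.716), was -0.02 without *Mif-2-/-Apoe-/-* library 2.

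*Col1a2*, whose product joins 2 chains of COL1A1 in the type I collagen trimer, had the largest fitted difference of the group. It was at 20.3, 31.5, 32.9, 12.5 and 14.3 CPM in *Apoe-/-* and at 17.9, 48.3, 98.0 and 11.2 CPM in *Mif-2-/-Apoe-/-* livers (log2 fold change 0.98, standard error 0.60, edgeR adjusted p = 0.462). The highest and the lowest of the 9 values both came from *Mif-2-/-Apoe-/-* livers, and without library 3 of that genotype the log2 fold change was 0.20. *Col1a1* counts were above *Col1a2* counts in all 9 libraries, and the ratio of their CPM, not corrected for length, ran from 1.36 in *Mif-2-/-Apoe-/-* library 3 to 8.10 in *Apoe-/-* library 4, so the pair did not keep a fixed proportion. *Col3a1*, the collagen of reticular fibres, ranged from 35.9 to 93.5 CPM and from 22.9 to 86.3 CPM (log2 fold change 0.11). *Col5a1* and *Col5a2*, the chains of the type V collagen that nucleates fibrils, had log2 fold changes of 0.61 and 0.37 and wide ranges, *Col5a1* from 7.98 to 64.3 CPM and from 21.4 to 71.4 CPM. In *Mif-2-/-Apoe-/-* library 4, *Col5a2* had 1 count beside 203 of *Col5a1*.

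Of the other collagens, *Col4a1*, the α1 chain of the basement membrane collagen that lines the sinusoids and vessels, was the most abundant. Its levels were 37.9, 49.2, 59.2, 48.6 and 46.5 CPM in *Apoe-/-* and 30.1, 47.7, 23.9 and 28.6 CPM in *Mif-2-/-Apoe-/-* livers. 3 of the 4 *Mif-2-/-Apoe-/-* libraries lay below all *Apoe-/-* libraries and the other within their range. Means were 48.3 ± 7.60 CPM (SD, n = 5) against 32.6 ± 10.4 CPM (SD, n = 4). The log2 fold change was -0.57 (standard error 0.37, edgeR adjusted p = 0.487), and exact permutation gave a two-sided p = 0.0556. *Col4a2*, which shares a start region with *Col4a1* on chromosome 8 and is read in the opposite direction, was at 31.1, 53.4, 32.4, 40.3 and 8.52 CPM and 19.7, 38.0, 35.3 and 46.6 CPM. The log2 fold change of 0.07 (standard error 0.51) became -0.12 with TMMwsp and -0.17 when *Apoe-/-* library 5 was left out, and the difference between the pair was not tested. Both chains are built into 1 trimer. Their CPM ratio lay between 0.613 and 1.83 in 8 libraries and was 5.46 in *Apoe-/-* library 5, where *Col4a2* had 44 counts. The exons of the pair overlap by 22 bases.

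*Col6a1* and *Col6a2*, chains of the microfibrillar type VI collagen, had log2 fold changes of 1.20 (standard error 0.84) and 0.42 (standard error 0.58). They lie on chromosome 10 at 76708792 to 76726168 and 76595762 to 76623630. The deleted *Ddt* is on the same chromosome at 75771230 to 75773414, and the part of that position was not tested. For *Col6a1*, 3 of the 4 *Mif-2-/-Apoe-/-* libraries, at 28.7, 16.5 and 24.9 CPM, lay above the highest *Apoe-/-* library at 15.0 CPM, and library 4 of that genotype was at 2.06 CPM. *Col14a1*, which decorates fibrils, ranged from 4.80 to 38.5 CPM and from 7.38 to 19.3 CPM (log2 fold change -0.76). None of the 5 passed an unadjusted p-value of 0.05.

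Genes of the contractile and intermediate filament apparatus, which activated stellate cells take on, gave 0 of 4 at an unadjusted p-value under 0.05. *Vim*, vimentin, an intermediate filament of all mesenchymal cells, was the most abundant. It was at 73.7, 105, 112, 106 and 79.6 CPM in *Apoe-/-* and at 87.6, 120, 67.5 and 56.5 CPM in *Mif-2-/-Apoe-/-* livers. The highest and the lowest library were again both *Mif-2-/-Apoe-/-*, with a log2 fold change of -0.20 (standard error 0.32, 95% interval -0.89 to 0.49). *Acta2*, α-smooth muscle actin, the standard marker of stellate cell activation, ranged from 25.9 to 67.3 CPM and from 22.9 to 94.5 CPM, with a log2 fold change of 0.12 (95% interval -0.87 to 1.10) that was -0.09 with TMMwsp and -0.38 without *Mif-2-/-Apoe-/-* library 3. *Des*, desmin, present in quiescent and activated stellate cells of rodents, ranged from 22.1 to 114 CPM and from 30.1 to 77.4 CPM (log2 fold change 0.12, and -0.07 with TMMwsp). *Tagln*, an actin-binding protein of smooth muscle, had medians of 9.25 and 11.8 CPM (log2 fold change 0.91, edgeR adjusted p = 0.575), and 1241 bases of its exons overlap a gene on the opposite strand.

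Lysyl oxidases cross-link collagen and elastin. *Loxl1* was the most abundant, at 14.8, 15.2, 14.1, 6.05 and 44.7 CPM in *Apoe-/-* and 24.2, 29.0, 16.6 and 17.1 CPM in *Mif-2-/-Apoe-/-* livers. All 4 *Mif-2-/-Apoe-/-* libraries lay between the highest *Apoe-/-* library and the other 4, and the log2 fold change was 0.19 (standard error 0.60, edgeR adjusted p = 0.914) and 0.80 without *Apoe-/-* library 5. *Lox* had 0 to 7 counts and *Loxl2* 0 to 14 counts in a library. A count of 3 corresponds to 0.402 to 1.70 CPM depending on the library, so differences in these genes were not detectable at this depth, and the log2 fold change of *Loxl2* (-2.22, 95% interval -5.38 to 0.95) rested on *Apoe-/-* library 3 with 14 counts, being -0.83 without it.

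In TGF-β signalling, *Tgfb1*, the ligand, had 9, 62, 0, 0 and 42 counts in *Apoe-/-* livers, against 20, 0, 0 and 11 with *Mif-2* deleted. It was thus missing from 4 libraries and above 40 counts in others, and its log2 fold change of -1.06 had a 95% interval from -4.48 to 2.36. *Tgfbr2*, the receptor that binds the ligand, was at 7.55, 7.64, 8.45, 32.9 and 8.32 CPM in *Apoe-/-* and at 3.46, 13.6, 4.28 and 4.34 CPM in *Mif-2-/-Apoe-/-* livers. In each genotype 1 library stood apart upward, and 3 of the 4 *Mif-2-/-Apoe-/-* libraries lay below all *Apoe-/-* libraries. The fit gave a log2 fold change of -1.03 (standard error 0.80, edgeR adjusted p = 0.568), which was -0.39 without *Apoe-/-* library 4 and -1.78 without *Mif-2-/-Apoe-/-* library 2.

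*Tgfbr1*, the partner kinase that *Tgfbr2* activates, had medians of 6.03 and 9.72 CPM (log2 fold change 0.97, standard error 0.75, edgeR adjusted p = 0.566). Its highest value was 23.3 CPM in *Mif-2-/-Apoe-/-* library 2, without which the log2 fold change was 0.38. The CPM ratio of *Tgfbr2* to *Tgfbr1* ran from 0.915 to 8.58 in *Apoe-/-* and from 0.359 to 0.773 in *Mif-2-/-Apoe-/-* livers and did not overlap. It was singled out after its values were seen, among 8 ratios computed, and was not tested. *Ccn2*, connective tissue growth factor, a target of TGF-β, ranged from 1.21 to 6.72 CPM and from 1.83 to 10.1 CPM (log2 fold change 0.46, standard error 0.92).

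**Figure D3:**
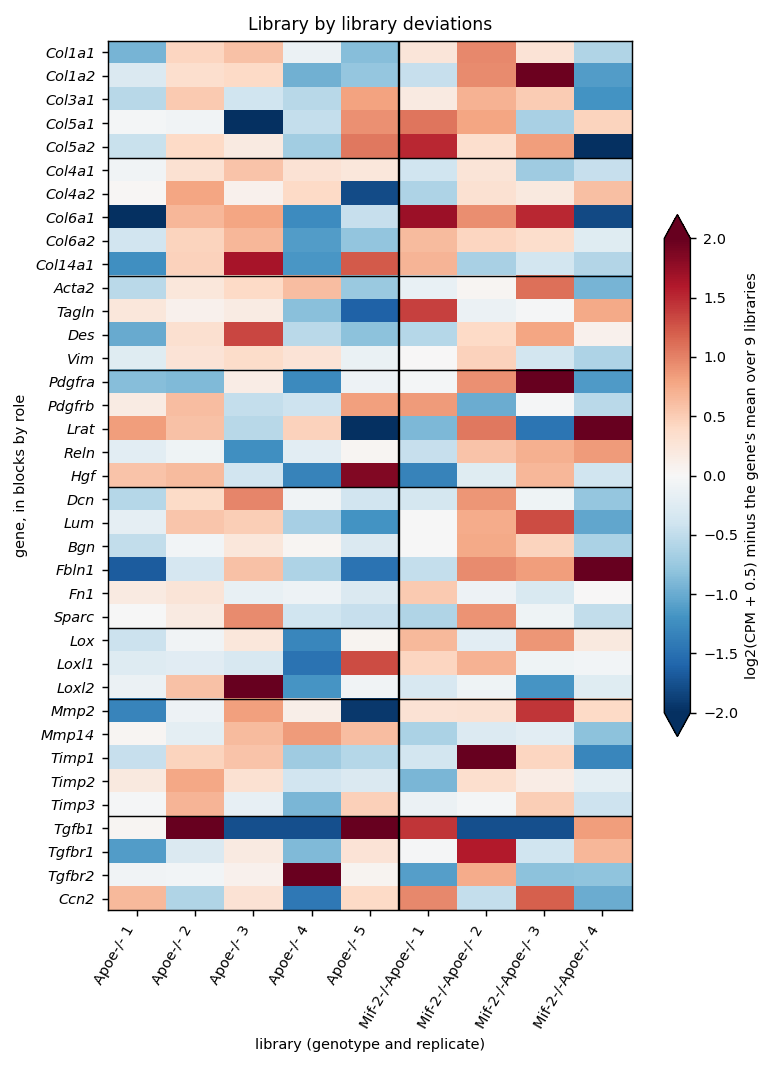
Deviation of each library from the mean of the 9 libraries, in log2(CPM + 0.5), for the 37 genes (rows, in blocks by role) with red above and blue below the mean. No block is red or blue throughout a genotype, while *Mif-2-/-Apoe-/-* library 2 is among the highest 2 for 16 genes and library 4 of that genotype is the lowest for 9.

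The spread within *Mif-2-/-Apoe-/-* livers was itself uneven. Library 2 of that genotype ranked among the highest 2 of the 9 libraries for 16 of the 37 genes, library 3 for 13 and *Apoe-/-* library 3 for 12, whereas *Apoe-/-* library 1 did so for 0. *Mif-2-/-Apoe-/-* library 4 was the lowest of all libraries for 9 genes and *Apoe-/-* library 4 for 8. *Mif-2-/-Apoe-/-* library 2 was also the shallowest, with 2318148 counts. Leaving out that library took the median log2 fold change of the 37 genes from 0.19 to -0.0046, and leaving out library 4 of that genotype took it to 0.36.

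Per kb of summed exon length, *Fn1* had the highest mean level over the 9 libraries at 46.4 CPM per kb, followed by *Sparc* (22.4), *Acta2* (22.0), *Vim* (18.9) and *Col1a1* (18.4). *Timp1* (15.7), *Dcn* (14.2) and *Des* (13.7) came next. *Loxl2*, *Lox* and *Hgf* were lowest, at 0.213, 0.174 and 0.153 CPM per kb. *Sparc* and *Acta2* are neighbours that differ by less than the spread of either gene between libraries, as are *Vim* and *Col1a1*. With the longest transcript as the length, *Mmp14* moved from 9.77 to 18.0, *Bgn* from 6.72 to 15.4 and *Col1a2* from 2.57 to 5.96 CPM per kb, while *Fn1* and *Sparc* stayed the highest 2.

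A list of 77 further genes of matrix, collagen processing, remodelling, TGF-β and PDGF was read from the same fit. By edgeR 0 of them had an adjusted p-value under 0.05, and at an unadjusted p-value under 0.05 there were 11 higher and 0 lower in *Mif-2-/-Apoe-/-* livers, beside the background of 8.99% and 6.52%. That background differed with exon length, as given below. The median log2 fold change of the 77 genes was 0.26. With TMMwsp there were 8 higher and 2 lower and the median was 0.08. The median of all genes, 0.17 with TMM, also fell with TMMwsp, as given above. The count and both medians thus moved with the scaling. The share of all genes that passed with TMMwsp is not given here. DESeq2 called 3 of them higher, *Lama5*, *Col16a1* and *Mmp11*, and gave 10 no adjusted p-value. *Lama5*, the laminin α5 chain of basement membranes, was at 24.7, 33.0, 29.1, 7.86 and 46.7 CPM in *Apoe-/-* and at 55.7, 76.1, 87.2 and 108 CPM in *Mif-2-/-Apoe-/-* livers. Every *Mif-2-/-Apoe-/-* library lay above every *Apoe-/-* library, and the log2 fold change was 1.53 (standard error 0.45, edgeR adjusted p = 0.165, DESeq2 adjusted p = 0.0319).

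Of the 25 other matrix proteins, 5 were higher at an unadjusted p-value under 0.05. Besides *Lama5* these were *Col6a3*, the third chain of type VI collagen (26.1 ± 13.9 and 84.2 ± 67.4 CPM, SD, n = 5 and 4, log2 fold change 1.69), and *Col16a1*, a fibril-associated collagen (9.97 ± 6.76 and 45.3 ± 41.7 CPM, log2 fold change 2.18), both highest in *Mif-2-/-Apoe-/-* library 3. Without that library their log2 fold changes were 1.01 and 1.43. The laminin genes *Lama4* (log2 fold change 1.38) and *Lamb2* (log2 fold change 1.18) were the remaining 2 and are named here because the count is small. *Lamb2* was at 275 CPM in *Mif-2-/-Apoe-/-* library 4, with the other 3 libraries of that genotype at 51.1 to 89.2 CPM and *Apoe-/-* livers at 29.0 to 87.3 CPM, and without that library its log2 fold change was 0.45. The median of this list was 0.78. In collagen synthesis and processing, 2 of 14 genes were higher, the procollagen protease *Adamts2*, at 11.8 to 17.3 CPM and 20.1 to 45.1 CPM without overlap (log2 fold change 1.05), and the procollagen export receptor *Mia3* (log2 fold change 0.85). *Mia3* was at 350 CPM in *Mif-2-/-Apoe-/-* library 1, with the other 3 at 120 to 163 CPM and *Apoe-/-* livers at 79.2 to 142 CPM, and its log2 fold change was 0.41 without that library. With TMMwsp neither passed the threshold. The chaperone *Serpinh1* and the hydroxylase subunit genes *P4ha1*, *P4ha2* and *P4hb* were not among them, with log2 fold changes of -1.34, 0.19, -1.00 and -0.73, and are named for their role, with their values known. *Serpinh1* was at 51.8 CPM in *Apoe-/-* library 2 and at 2.82 to 8.52 CPM in the other 8 libraries, and without that library its log2 fold change was 0.24. *P4ha2* was also highest there, at 40.8 CPM, and was at -0.69 without it, while *P4ha1* was at -0.02 with TMMwsp.

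Of the other remodelling genes, 2 of 15 were higher. *Mmp11*, stromelysin-3, had 0 counts in each *Apoe-/-* library, against 13, 19, 1 and 1 in *Mif-2-/-Apoe-/-* livers. It lies on chromosome 10 from 75923222 to 75936496, near the deleted *Ddt* at 75771230 to 75773414. The part of that position in its counts was not tested. *Ctsk*, a collagen-degrading cathepsin, had a log2 fold change of 2.56 and was highest in *Mif-2-/-Apoe-/-* library 3 at 23.9 CPM, with the other 8 libraries at 0.194 to 9.65 CPM and a log2 fold change of 1.40 without it. Among 23 other TGF-β and PDGF genes, 2 were higher. *Itgb8*, an integrin chain that activates latent TGF-β, had 0, 0, 0, 0 and 1 counts in *Apoe-/-* livers, against 1, 11, 1 and 2 in *Mif-2-/-Apoe-/-* livers.

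Markers of liver cell types that could carry these transcripts were read alongside. Of 16 further stellate cell markers, 2 were higher and 3 lower at an unadjusted p-value under 0.05. *Tcf21*, a transcription factor of quiescent stellate cells, was higher (log2 fold change 2.64) through *Mif-2-/-Apoe-/-* library 2 at 68.1 CPM, with the other 8 libraries at 6.86 CPM or less and a log2 fold change of 0.54 without it. *Rgs5*, a pericyte gene, had 0 to 8 counts. *Hand2* (log2 fold change 1.85) and *Ngfr* (log2 fold change -1.68) were also among them and were named after their values were seen. The summed level of the 16 ran from 328 to 679 CPM in *Apoe-/-* and from 370 to 537 CPM in *Mif-2-/-Apoe-/-* livers.

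At the same threshold, 0 of 8 portal fibroblast, 0 of 6 smooth muscle, 0 of 4 mesothelial, 0 of 12 endothelial and 0 of 5 cholangiocyte markers passed. Their sums ranged from 379 to 481 CPM and from 468 to 701 CPM for portal fibroblast, from 80.5 to 128 CPM and from 84.0 to 277 CPM for smooth muscle, and from 8.23 to 51.9 CPM and from 6.81 to 14.6 CPM for mesothelial markers, first in *Apoe-/-* and then in *Mif-2-/-Apoe-/-* livers. Most of the portal fibroblast sum was *Gas6*, a secreted ligand of TAM receptors, at 318 to 417 CPM and 422 to 639 CPM without overlap (log2 fold change 0.43, and 0.24 with TMMwsp), and the other 7 markers were at 0 to 42.6 CPM. Endothelial markers summed to 621 to 1214 CPM and 384 to 1207 CPM, and cholangiocyte markers to 91.0 to 306 CPM and 67.4 to 307 CPM. Of 8 Kupffer cell markers 1 was lower, *Cd5l* (log2 fold change -1.20), with sums of 1015 to 2024 CPM and 1107 to 1566 CPM, and of 6 lymphocyte markers 1 was higher, *Cd3e*, which had 46 counts in *Mif-2-/-Apoe-/-* library 2 and 0 to 4 in the others. Of 11 hepatocyte markers tested 2 were higher and 2 lower, and the sum of all 16 listed ran from 95732 to 299730 CPM and from 83625 to 259490 CPM. This sum takes in markers among the 10 most abundant genes, whose counts lie outside the sum used for scaling. Scaled to all counts of a library instead, without TMM, it ran from 94759 to 182520 CPM and from 86346 to 197110 CPM. No marker had 0 counts in all 9 libraries, and the part of cell composition in any value above was not tested.

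**Figure D4:**
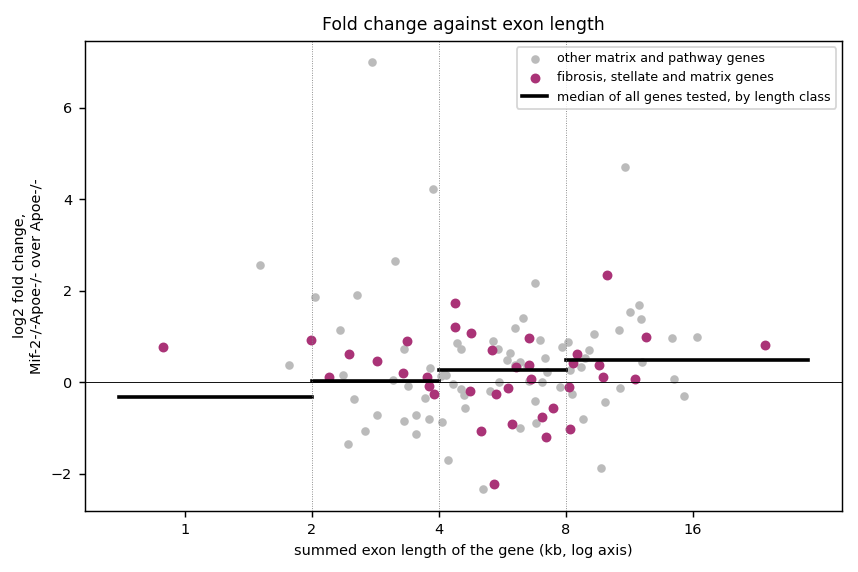
Log2 fold change (*Mif-2-/-Apoe-/-* over *Apoe-/-*) against summed exon length in kb on a log axis, for the 37 genes (purple) and 77 further matrix and pathway genes (grey), with black bars for the median of all genes tested in each length class. The bars step up from -0.32 under 2 kb to 0.49 over 8 kb, and the purple points lie on both sides of them in each class above 2 kb.

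Matrix genes are long, and exon length moved with the fold change across the whole table. Lengths were found for 15433 of the genes tested (91.5%), whose median log2 fold change was -0.32 under 2 kb, 0.03 from 2 to 4 kb, 0.26 from 4 to 8 kb and 0.49 over 8 kb. The 37 genes had medians of 0.83 (2 genes), 0.15 (8 genes), -0.13 (17 genes) and 0.39 (10 genes) in the same classes. The 77 further genes had a median of 0.53 over 8 kb, where 21 of them fall, among them *Lama5*, and 34 fall at 4 to 8 kb. At an unadjusted edgeR p-value under 0.05, 9.62% of all genes over 8 kb were higher and 1.33% lower. The shares were 8.98% and 4.04% from 4 to 8 kb, 8.96% and 9.04% from 2 to 4 kb, and 6.54% and 15.2% under 2 kb. The part of length in these differences was not tested.

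The intervals show what this depth and spread allow. Of the 37 genes, 3 had a 95% interval within 1 log2 unit of 0 on either side, *Fn1*, *Vim* and *Sparc*. For 18 genes the interval lay within 2 log2 units of 0, and for 19 it reached beyond 2. The coefficient of variation that edgeR fitted as 1 common value for all genes tested was 0.909, and single genes can differ from it. A p-value above the threshold therefore does not show that a gene was at the same level in both genotypes.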

How the data were processed

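The authors deposited whole-number counts of reads on exons per gene, without normalization, for libraries made with the Smart-seq2 protocol from sections of frozen liver. Reads were trimmed with cutadapt and aligned with HISAT2 to mm10, per the labels and the study's methods, with tool versions not given in the sources used here. Counting is not stated to use strand, and reads have no molecular identifiers, so floors cover counting error only. Symbols were matched through RefSeq gene names to 25275 of 27179 identifiers (1904 had none), and 1 line without an identifier, a repeated header, was left out. All 5 libraries labelled *Apoe-/-* and all 4 labelled *Mif-2-/-Apoe-/-* were used, although the legend of the study gives fewer mice than libraries for the former.

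The test covered 16860 genes that had a count of 1 or more in 3 or more libraries of a genotype and were not among the 10 most abundant. It was edgeR's quasi-likelihood test (edgeR 4.0.16, R 4.3.3, TMM, Benjamini-Hochberg adjustment). Named genes were also tested by two-sided exact permutation of log2(CPM + 0.5). DESeq2 1.42.0, the tool of the study in another version, was applied to all genes with a count and gave no adjusted p-value for 7055 of them. Gene positions and exon lengths come from GENCODE M21 on GRCm38 and upstream sequences from RefSeq (GRCm38.p6). Tables and figures used pandas 2.3.3, numpy 2.4.6 and matplotlib 3.10.9 under Python 3.11.15.

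The 37 genes, the further lists, the tests and the alternatives were chosen with earlier results of these data known. Each of the 37 was accounted for, and values in every library are given at least for those with an unadjusted p-value under 0.05 or no overlap and for the most abundant of each role group. At most 3 genes of each other list with the smallest p-values were to be named, exceptions are marked, and some genes of these lists are not reported here. The test was checked on simulated counts of the same comparison. The changed genes were drawn only from genes averaging 10 CPM or more. Recovery among less abundant genes, several of the 37 included, was therefore not measured. At the spread of these libraries it recovered 149 of 200 genes changed 8-fold among 16381, with 7 false calls. At a smaller spread it recovered 200 of 200 among 16784, with 16 false calls. The alternatives were RLE and TMMwsp scaling, low-count filtering by filterByExpr or none, inclusion of the 10 genes, exclusion of 1086 genes (mitochondrial, rRNA, Gm and Rik), thinned counts, DESeq2, a replicate block and each library left out in turn.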

Additional observations from a re-analysis of the deposited data

Results flagged for a closer look

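In 74 groups of 4 or 5 libraries (each of the 37 genes in each genotype), 4 held a library set apart from the others by Dixon's criterion at the 95% level on log2(CPM + 0.5), where chance sets apart about 1 in 20 groups. *Tgfbr2* was at 32.9 CPM (163 counts) in *Apoe-/-* library 4, with the other 4 libraries of that genotype at 7.55 to 8.45 CPM. It was also at 13.6 CPM (24 counts) in *Mif-2-/-Apoe-/-* library 2, with the others at 3.46 to 4.34 CPM. *Mmp2* was at 44.3 CPM (176 counts) in *Mif-2-/-Apoe-/-* library 3, with the others at 19.7 to 21.3 CPM. *Reln* was at 4.23 CPM (9 counts) in *Apoe-/-* library 3, with the others at 9.05 to 10.8 CPM. *Pdgfra* in *Mif-2-/-Apoe-/-* library 3 did not reach the criterion at 47.6 CPM. The cause of these values was not tested.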

How the results depend on the processing

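Under every alternative run, 0 of the 37 genes passed an adjusted p-value of 0.05. The sign of the log2 fold change held for 24 of the 37 in every run that fitted them. Of these, *Tgfb1* was fitted in 14 of the 18 runs and *Hgf*, *Lox* and *Loxl2* in 17. The 22 genes of the whole table that passed became 739 with DESeq2 and 9 to 262 when a library was left out (262 without *Mif-2-/-Apoe-/-* library 2, 126 without *Apoe-/-* library 5). Of the 37 genes, 3 had an unadjusted p-value under 0.05, and 1 to 3 when a library was left out. Of the 77 further genes 11 passed that threshold, 7 with edgeR's own filter on low counts and 7 to 11 when a library was left out.

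The sign of these log2 fold changes turned. With TMMwsp they were -0.029 for *Col3a1*, -0.12 for *Col4a2*, -0.086 for *Acta2*, -0.068 for *Des* and -0.12 for *Fn1*. With the 10 most abundant genes kept *Col4a2* was at -0.024 and *Fn1* at -0.022, and with mitochondrial, rRNA, Gm and Rik genes removed they were at -0.020 and -0.019. Leaving out 1 library gave -0.021 to 0.58 for *Col1a1*, -0.16 to 0.39 for *Col3a1*, -0.18 to 0.78 for *Col5a2*, -0.17 to 0.27 for *Col4a2*, -0.38 to 0.36 for *Acta2*, -0.14 to 0.58 for *Des*, -0.21 to 1.07 for *Lrat*, -0.63 to 0.073 for *Dcn*, -0.12 to 0.17 for *Fn1*, -0.60 to 0.11 for *Sparc*, -0.080 to 0.80 for *Loxl1*, -0.30 to 1.09 for *Timp1* and -0.34 to 0.038 for *Timp3*. Of 21 named genes that are no members, recomputed after the data were seen, *Serpinh1* ran from -1.72 to 0.24 and *P4ha1* from -0.28 to 0.53 when a library was left out, and *P4ha1* was at -0.019 with TMMwsp. Leaving out 1 library moved the fold change of 11 of the 37 genes by over 1.5 times. The cause was not tested.

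Replicate numbers 1 to 4 were shared by the genotypes, and the labels do not say what they stand for. Deviations of same-numbered libraries had correlations of 0.134, 0.00193, 0.0499 and -0.0133, beside -0.161 to 0.234 for the other pairs. Whether same-numbered libraries share a batch was not tested. A replicate block over these 8 libraries gave 505 genes of the whole table at an adjusted p-value under 0.05. At an unadjusted p-value under 0.05 it gave 1 of the 37, and the share of all genes at that threshold is not given here. Its log2 fold changes were -0.20 for *Col4a2*, -0.14 for *Acta2*, -0.17 for *Lrat*, -0.012 for *Fn1* and 0.10 for *Timp3*.

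*Hgf*, *Lox*, *Loxl2* and *Tgfb1* had 0 counts in at least 1 library. Each had 0 counts in *Apoe-/-* library 4, which held 8146807 counts and 14220 genes with a count. The part of depth in these 0 counts was not tested.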
